A study of Mus musculus with 15 samples.

Results

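Transcripts of the antibody chains were followed in LSK cells, marrow cells without lineage markers that carry Sca-1 and Kit and include the blood stem cells. The genes were Ighm, the constant region of the mu heavy chain; Igk-V21, a family of kappa light chain variable segments; and Jchain, the joining chain of secreted IgM and IgA. They were chosen from earlier results of these same arrays because their signals rose with time and because Ighm did not follow Pax5, the transcription factor that commits progenitors to the B lineage. All probe sets whose only annotated gene was one of the 3 were taken, which gave 3 of 17097 genes, through 5 of 45037 probe sets tested: 1 of Ighm, 3 of Igk-V21 and 1 of Jchain. The time differences of all 5 probe sets, and every difference of Ighm, are therefore given as descriptions with no test.

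The series held 15 arrays in 5 groups of 3: HOXB4+ LSK cells at 6, 12 and 20 weeks, and GFP+ LSK cells at 20 and 12 weeks. No GFP arrays of 6 weeks were used here. All groups came from marrow of 5-FU treated female C57Bl/6 donors that was transduced with a retrovirus and given to lethally irradiated hosts; the vectors were MSCV-HOXB4-ires-YFP and MSCV-ires-GFP, so forced HOXB4 and the fluorescent protein both differ between them. The times are those of the sample titles, while the series text gives the last time as 24 weeks. The donors' and hosts' ages are not in the labels, the vector drives HOXB4 in all descendants of a transduced cell, and whether a group's arrays stem from separate mice is not given in the labels. P-values therefore rest on an array-to-array spread that could be technical only.

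An antibody is built from heavy and light chains. Progenitors that enter the B lineage first join variable, diversity and joining segments of the heavy chain locus, pair the mu chain with a surrogate light chain, and then join a kappa or lambda segment. Transcripts from unrearranged mu and kappa loci also occur before joining is complete, and the joining chain is made in quantity by plasma cells. In assembly GRCm38.p6 the Ighm constant region lies at chr12:113418826-113422730 in the heavy chain locus, which spans chr12:113258768-116009954. The kappa locus spans chr6:67555636-70726754 and Jchain lies at chr5:88519809-88527897. Igk-V21 has no row of its own in that gene table.

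The values are log2 RMA signals, in which a difference of 1 is a doubling. Replicate arrays correlated between 0.967 and 0.994 over all probe sets, and array medians lay between 5.245 and 5.397. Kit, which the sort selected on, had group means of 8.07 to 8.21 with HOXB4, and of 8.40 (20 weeks) and 8.70 (12 weeks) with GFP. Neutrophil genes, which a lineage-negative sort should lack, were bright in GFP cells at 20 weeks, with Camp at 10.51 ± 0.03 and Lcn2 at 10.46 ± 0.16 (SD, n = 3). Replicate 3 of HOXB4 cells at 6 weeks stood apart: its Pax5 signal was 5.75 against 8.78 and 9.81 on the other arrays of that group, and its mean over 10 neutrophil markers was 4.97 against 6.82 and 6.74.

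Ighm was near the low end of its range in GFP cells at 12 weeks and near the high end in GFP cells at 20 weeks, with the HOXB4 groups between them. In HOXB4 cells it was at 5.45, 5.46 and 5.11 at 6 weeks, at 7.47, 7.27 and 8.71 at 12 weeks, and at 8.49, 8.01 and 7.76 at 20 weeks. In GFP cells it was at 8.86, 7.70 and 9.30 at 20 weeks, against 4.05, 4.67 and 4.44 at 12 weeks. All arrays of HOXB4 cells at 12 weeks thus lay above all arrays at 6 weeks, while the 12- and 20-week HOXB4 arrays overlapped. Every GFP array at 20 weeks lay above every one at 12 weeks. The mean difference was 2.47 for HOXB4 at 12 against 6 weeks (5.55-fold), 0.27 for HOXB4 at 20 against 12 weeks, and 4.23 for GFP at 20 against 12 weeks (18.8-fold), each with a standard error of 0.39. From low to high the group means ran GFP 12 weeks (4.39), HOXB4 6 weeks (5.34), HOXB4 12 weeks (7.81), HOXB4 20 weeks (8.09) and GFP 20 weeks (8.62). The lowest steps, of 0.95 and 2.47, separated groups whose arrays did not overlap, and the arrays of the upper 3 groups overlapped with their neighbours in that order.

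**Figure D1:**
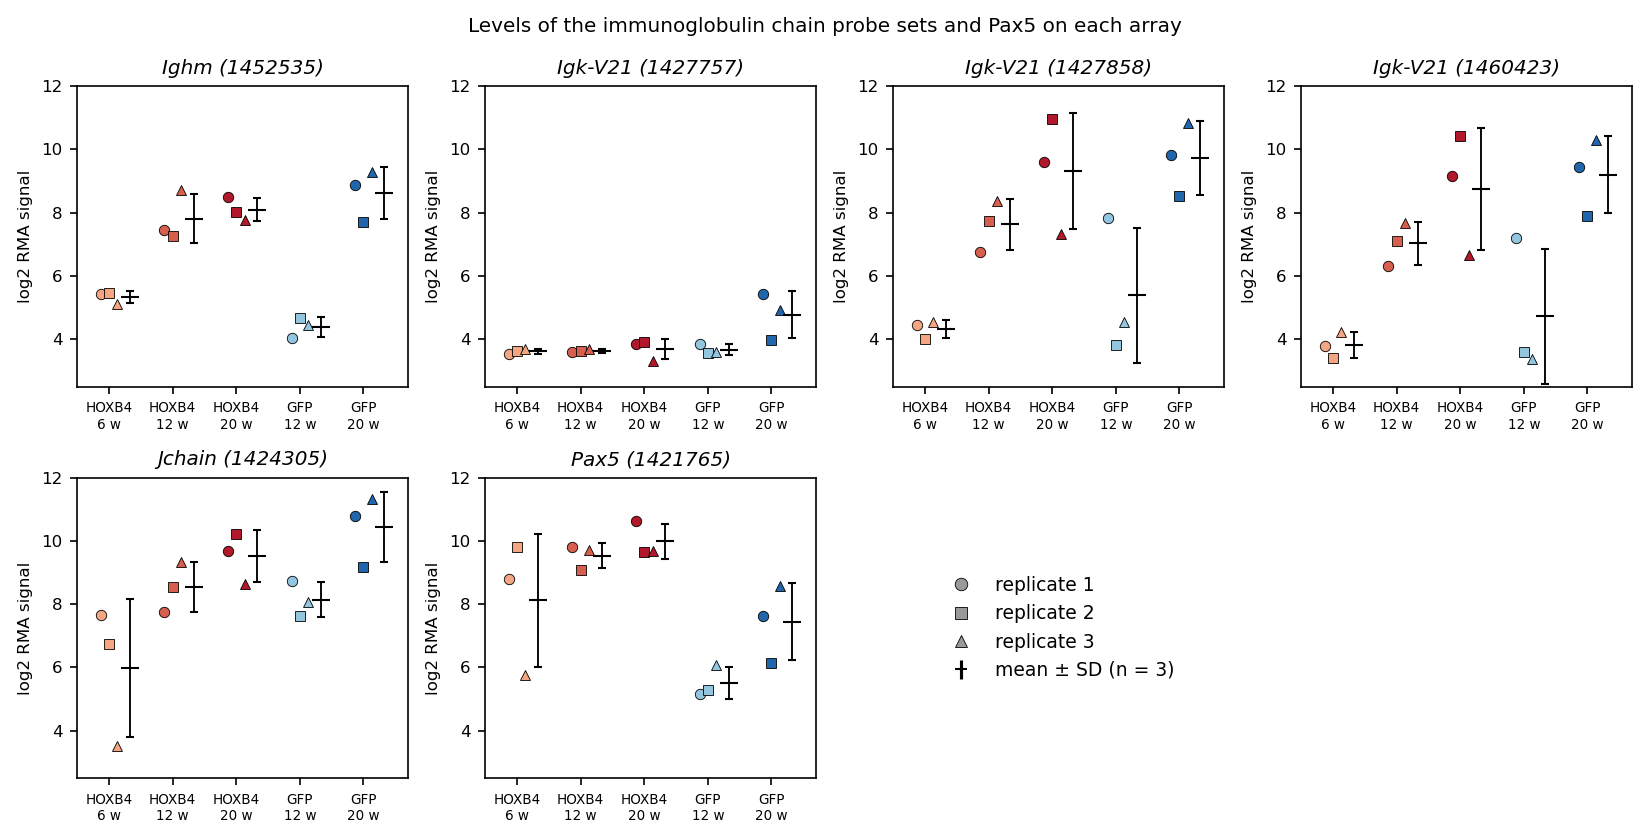
Log2 RMA signal (vertical axis) of the 5 immunoglobulin chain probe sets and of Pax5 on each of the 15 arrays; marker shapes are replicates and bars are the mean ± SD of 3 arrays. Ighm is lowest in GFP cells at 12 weeks (4.05 to 4.67) and reaches 7.70 to 9.30 in GFP cells at 20 weeks, while Pax5 is highest in HOXB4 cells at 12 and 20 weeks.

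Pax5 followed another order. It was at 8.78, 9.81 and 5.75 in HOXB4 cells at 6 weeks, at 9.81, 9.07 and 9.71 at 12 weeks, and at 10.63, 9.66 and 9.68 at 20 weeks. In GFP cells it was at 7.62, 6.16 and 8.57 at 20 weeks, against 5.16, 5.30 and 6.09 at 12 weeks. Every HOXB4 array at 20 weeks had more Pax5 signal than every GFP array at 20 weeks, whereas the Ighm signals of these same groups overlapped. Of all probe sets 12.7% were separated in that direction at 20 weeks. At 20 weeks the HOXB4 minus GFP difference was 2.54 for Pax5 and -0.53 for Ighm; at 12 weeks it was 4.01 for Pax5 and 3.42 for Ighm. Replicates 1 and 2 of HOXB4 cells at 6 weeks had Pax5 within the range of the later HOXB4 arrays or just below it, with Ighm at 5.45 and 5.46, under every later HOXB4 array. These contrasts of Ighm with Pax5 are the pattern on which Ighm was picked.

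**Figure D2:**
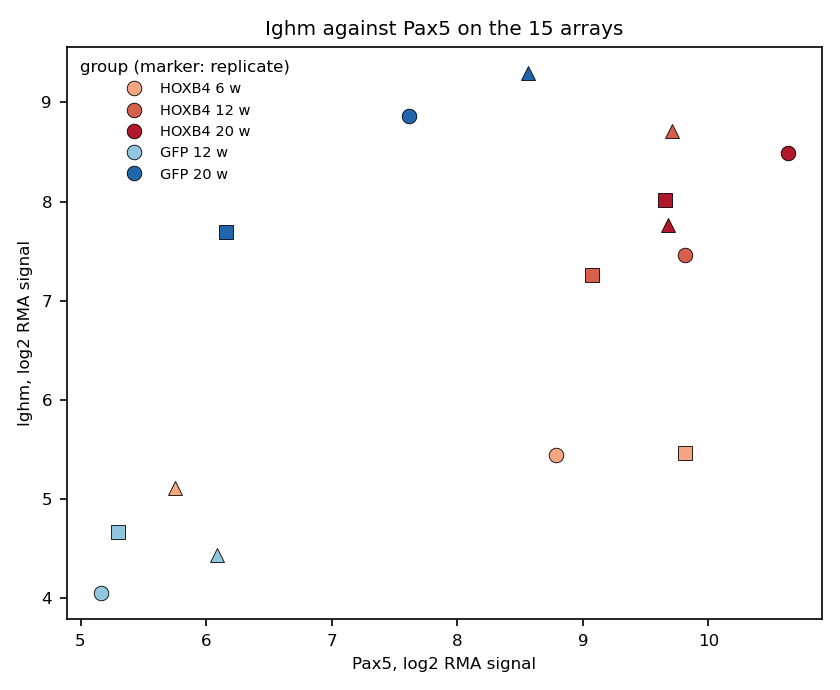
Ighm (vertical axis) against Pax5 (horizontal axis), both as log2 RMA signal, on the 15 arrays; colours are groups and marker shapes are replicates. GFP cells at 20 weeks (blue) lie at Ighm 7.70 to 9.30 with Pax5 at 6.16 to 8.57, and 2 arrays of HOXB4 cells at 6 weeks (light orange) lie at Ighm 5.45 and 5.46 with Pax5 at 8.78 and 9.81.

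The 3 probe sets of Igk-V21, which stand for kappa variable segments, did not act alike. Probe sets 1427858_PM_at and 1460423_PM_x_at were designed on one sequence record and differed from each other by 0.21 to 1.17 on every array, so they are a pair of readings of one target and not separate evidence. 1427858_PM_at was at 4.44, 4.02 and 4.54 in HOXB4 cells at 6 weeks, at 6.76, 7.74 and 8.38 at 12 weeks, and at 9.60, 10.96 and 7.34 at 20 weeks. In GFP cells it was at 9.81, 8.53 and 10.84 at 20 weeks, against 7.82, 3.82 and 4.54 at 12 weeks. Replicate 1 of GFP cells at 12 weeks was thus more than 3 log2 units above the other arrays of its group, at the level of HOXB4 cells of that time. The SD over 3 arrays was 2.13 in that group and 1.83 in HOXB4 cells at 20 weeks, against 0.28 in HOXB4 cells at 6 weeks. The order of the group means was HOXB4 6 weeks (4.33), GFP 12 weeks (5.39), HOXB4 12 weeks (7.63), HOXB4 20 weeks (9.30) and GFP 20 weeks (9.73), and the arrays of each neighbouring pair overlapped. Differences over time were 3.29 for HOXB4 at 12 against 6 weeks, 1.68 for HOXB4 at 20 against 12 weeks and 4.33 for GFP at 20 against 12 weeks. Without replicate 3 of HOXB4 cells at 20 weeks the second of these was 2.66, and without replicate 2 it was 0.85.

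The same differences for 1460423_PM_x_at, whose name marks possible cross-hybridisation, were 3.22, 1.72 and 4.48. Its group means were 3.81, 7.03 and 8.74 in HOXB4 cells at 6, 12 and 20 weeks, and 9.20 and 4.72 in GFP cells at 20 and 12 weeks. 1427757_PM_at, which was designed on another record, stayed within 3.32 to 3.98 on 13 of the 15 arrays. Only replicates 1 and 3 of GFP cells at 20 weeks were brighter on it, at 5.42 and 4.94, and replicate 2 of that group was at 3.98. Its GFP difference at 20 against 12 weeks was 1.11. It was 1.5 without GFP replicate 2 of 20 weeks and 0.78 without replicate 1, and the HOXB4 groups differed by at most 0.07. Variable segments of a family resemble each other in sequence, so signal on any of these probe sets may come partly from relatives of the annotated segment.

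Jchain, on its 1 probe set, was at 7.66, 6.75 and 3.52 in HOXB4 cells at 6 weeks, at 7.76, 8.54 and 9.33 at 12 weeks, and at 9.68, 10.23 and 8.62 at 20 weeks. In GFP cells it was at 10.77, 9.19 and 11.34 at 20 weeks, against 8.73, 7.62 and 8.08 at 12 weeks. The 3.52 of replicate 3 at 6 weeks lay more than 3 log2 units below its group, on the array that also had the least Pax5 of the HOXB4 arrays. The difference of HOXB4 at 12 against 6 weeks was 2.57 with this array and 1.34 without it, and that at 20 against 6 weeks was 3.54 and 2.31. HOXB4 at 20 against 12 weeks differed by 0.97 and GFP at 20 against 12 weeks by 2.29, each with a standard error of 0.84. From low to high the means ran HOXB4 6 weeks (5.98), GFP 12 weeks (8.14), HOXB4 12 weeks (8.54), HOXB4 20 weeks (9.51) and GFP 20 weeks (10.43), and the arrays of each neighbouring pair overlapped. At 12 weeks the Jchain signals of HOXB4 and GFP cells overlapped, whereas those of Ighm did not. All HOXB4 arrays lay above all GFP arrays of that time for 15.5% of all probe sets.

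Among the 3 genes, Jchain had a start window in the RefSeq promoter table. The window shown is 250 bases before to 30 bases after its start in GRCm38.p6, chr5:88527868-88528147 on the minus strand; it is printed because the joining chain is the one chain gene here that needs no segment joining, so its promoter is the same in every cell. Capitals mark E-boxes, the 6-letter site CANNTG read by E2A and related basic helix-loop-helix factors.
Jchain: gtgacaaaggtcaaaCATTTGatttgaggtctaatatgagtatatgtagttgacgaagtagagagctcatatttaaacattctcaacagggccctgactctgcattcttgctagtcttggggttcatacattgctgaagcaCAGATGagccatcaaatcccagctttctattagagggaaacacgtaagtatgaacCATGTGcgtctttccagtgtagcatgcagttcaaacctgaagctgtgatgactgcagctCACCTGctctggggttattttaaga
An E-box match occurred 4 times, starting at -235, -109 and -54 before the start and at 6 after it, and 70.1% of 32851 promoter windows of this length held at least 1 on either strand. The last match also fitted CAGGTG, the form preferred by E2A, on the reverse strand, which 19.1% of windows held. No match was found to the octamer ATGCAAAT (1.69% of windows), to GAGGAA, a core bound by PU.1 (26.0%), or to the palindrome of EBF1, TCCC and GGGA set 2 bases apart (0.868%). These matches describe letters in this window and do not show binding.

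Counted over the 5 probe sets, every GFP array at 20 weeks lay above every array at 12 weeks for 5 of 5, against 8.85% of all probe sets. For HOXB4, 4 of 5 were separated in this way at 12 against 6 weeks (10.8% of all) and 4 of 5 at 20 against 6 weeks (7.87%). The exception in both was 1427757_PM_at. At 20 against 12 weeks in HOXB4 cells 0 of 5 were separated (8.82%). These counts follow from how the genes were chosen and are given for size only. The comparisons share arrays, among them the 12-week HOXB4 group.

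Igk-V21 and Jchain were not picked on the difference between the vectors, so it was tested for them. These tests still use arrays on which the rise with time was judged, so the p-values are not free of the choice. In limma with Benjamini-Hochberg adjustment over 45037 probe sets, 0 of the 4 probe sets of Igk-V21 and Jchain passed at 12 weeks, when 3.26% of all probe sets were called. There 1427858_PM_at was higher by 2.23 ± 0.97 (SE; 95% interval 0.16 to 4.30; adjusted p = 0.236) and its partner by 2.30 ± 0.99 (adjusted p = 0.23). Without GFP replicate 1 of that time, 1427858_PM_at differed by 3.44. Jchain differed by 0.40 ± 0.84 (95% interval -1.41 to 2.21; adjusted p = 0.855) and 1427757_PM_at by -0.04 ± 0.26 (adjusted p = 0.961). The interval of Jchain spans both directions, and those of the pair lie above 0 only before adjustment, so neither a difference nor its absence was shown.

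At 20 weeks 1 of the 4 was called, when 6.75% of all probe sets were. 1427757_PM_at was lower in HOXB4 cells, at 3.85, 3.92 and 3.32, against 5.42, 3.98 and 4.94 in GFP cells, by a log2 change of -1.08 ± 0.26 (95% interval -1.65 to -0.52; limma adjusted p = 0.0232). The 2 groups did not overlap, but 3.92 and 3.98 nearly met. All HOXB4 arrays lay below all GFP arrays of that time for 10.8% of all probe sets. The same GFP arrays enter the rise with time for which the gene was chosen, so this p-value is not independent of the choice. The call was lost without GFP replicate 1 (-0.76, adjusted p = 0.0991), without GFP replicate 3 (-1.01, adjusted p = 0.0651) and without HOXB4 replicate 3 (-0.90, adjusted p = 0.0981), and in a fit of these 2 groups alone (adjusted p = 0.169). Jchain differed by -0.92 ± 0.84 (95% interval -2.73 to 0.89; adjusted p = 0.602), 1427858_PM_at by -0.42 ± 0.97 (adjusted p = 0.862) and its partner by -0.46 ± 0.99 (adjusted p = 0.852). Over the mean of both times 0 of 4 passed, when 12.9% of all probe sets were called. The changes were -0.56 ± 0.19 for 1427757_PM_at (adjusted p = 0.0631; called at -0.76 without GFP replicate 2 of 20 weeks, adjusted p = 0.00243), 0.90 for 1427858_PM_at (adjusted p = 0.42), 0.92 for 1460423_PM_x_at (adjusted p = 0.421) and -0.26 for Jchain (adjusted p = 0.819). With an unadjusted p under 0.05, 8233 of all probe sets differed at 12 weeks, 9130 at 20 weeks and 12601 over both.

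Some arrays were the highest or lowest of their group over most immunoglobulin probe sets. Counting the 5 members and 21 further probe sets of 14 other chain genes, replicate 2 of GFP cells at 20 weeks was the lowest of its group on 23 of 26 and replicate 3 the highest on 19 of 26. In HOXB4 cells at 20 weeks replicate 3 was lowest on 23 of 26 and replicate 2 highest on 17 of 26. In HOXB4 cells at 12 weeks replicate 3 was highest on 18 of 26 and replicate 1 lowest on 20 of 26. The order was less uniform in the other groups. In HOXB4 cells at 6 weeks replicates 1, 2 and 3 were highest on 3, 11 and 12 of 26 and lowest on 10, 8 and 8. In GFP cells at 12 weeks they were highest on 12, 6 and 8 and lowest on 6, 14 and 6. Over all probe sets the arrays named for the first 3 groups were the highest or lowest of their group in 30.3% to 37.9% of cases. Several of the 26 probe sets read the same gene or were designed on the same sequence record, so they are not separate readings. In bulk RNA, more cells that carry a transcript and more transcript per cell cannot be told apart.

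**Figure D3:**
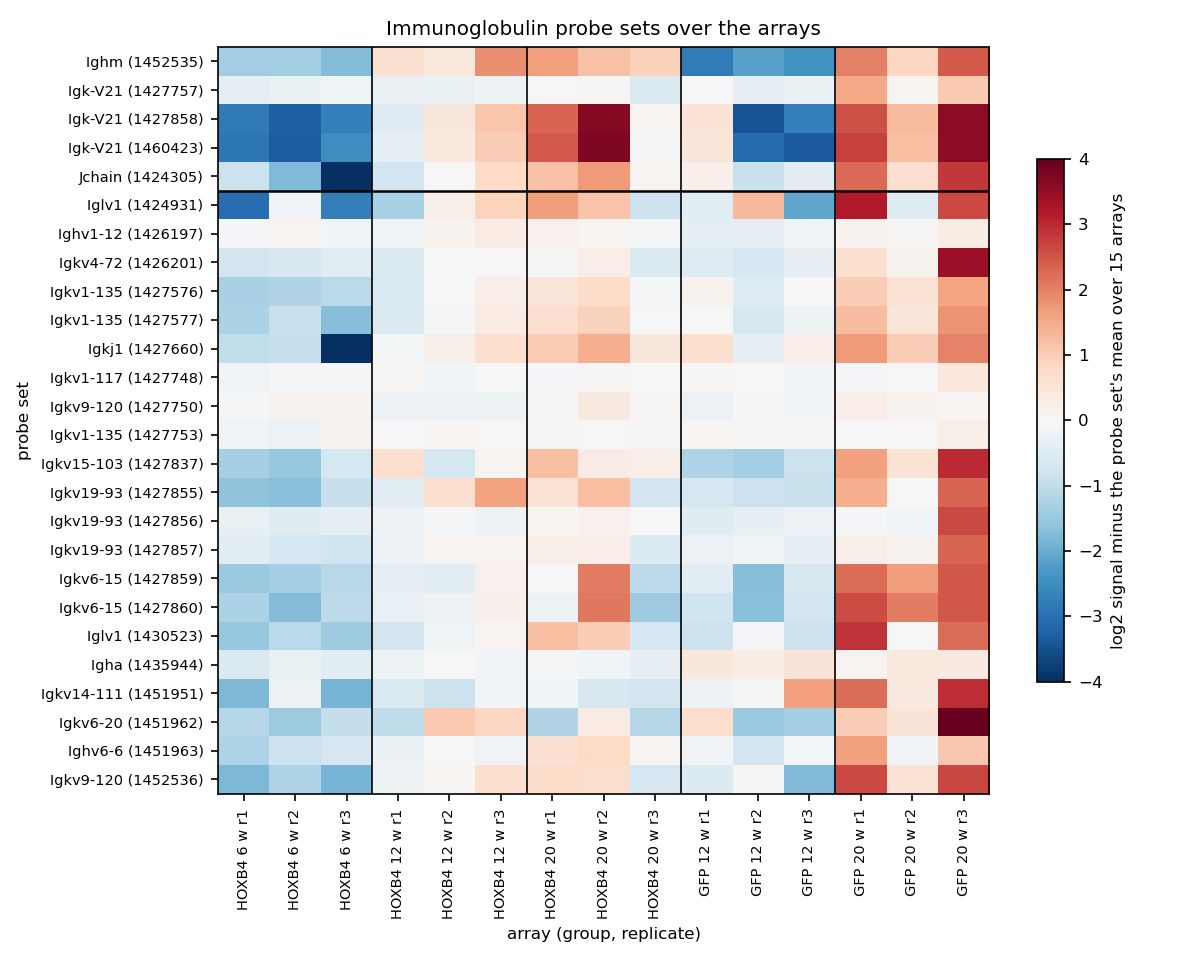
Log2 signal of each immunoglobulin probe set minus its mean over 15 arrays, with arrays in columns by group and replicate and probe sets in rows, the 5 members above the line; colours end at -4 and 4. Replicate 2 of GFP cells at 20 weeks is paler than replicates 1 and 3 in most rows, and replicate 3 of HOXB4 cells at 6 weeks is dark blue for Jchain and Igkj1.

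The other 14 immunoglobulin genes, each read through its brightest probe set, had a few calls over time in each vector, and most did not pass the test. In GFP cells at 20 against 12 weeks 4 of 14 rose (1 without GFP replicate 1 of 20 weeks, 7 without replicate 2) and 0 fell, with a median of 1.68, against -0.04 over all genes, of which 1.89% were called. The kappa variable segments Igkv6-15 (3.06 ± 0.55; limma adjusted p = 0.0111), Igkv15-103 (2.86 ± 0.49; adjusted p = 0.00802), Igkv9-120 (2.70 ± 0.56; adjusted p = 0.0248) and Igkv1-135 (1.46 ± 0.34; adjusted p = 0.0455) were the 4. Igkv15-103 kept its call with any 1 array left out (adjusted p up to 0.0427). Igkv6-15 lost it without GFP replicate 2 of 12 weeks (adjusted p = 0.0613) or replicate 1 of 20 weeks (adjusted p = 0.0585). Igkv9-120 lost it without replicates 1 or 3 of either GFP group (adjusted p up to 0.141), and Igkv1-135 when any 1 GFP array other than replicate 2 of 20 weeks was left out (adjusted p up to 0.176). Igkv1-135 also lost it in 4 of the 7 alternatives that keep all arrays, and Igkv9-120 in the fit of only the groups compared. Other probe sets of these genes differed in how far they rose. For Igkv9-120, 1427750_PM_at was at 4.86 to 5.04 on the GFP arrays of 12 weeks and at 5.17 to 5.36 at 20 weeks. For Igkv1-135 the GFP means at 12 and 20 weeks were 6.54 and 7.71 (1427576_PM_at), and 3.14 and 3.23 (1427753_PM_at). For Igkv6-15 they were 4.51 and 7.97 (1427860_PM_at).

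In HOXB4 cells at 20 against 6 weeks 2 of 14 rose (1 without replicate 1 or 2 of 20 weeks, 4 without replicate 3) and 0 fell, with a median of 1.53 against 0.00 over all genes (4.05% called). Igkv1-135 rose by 1.81 ± 0.34 (adjusted p = 0.0125) and kept its call with any 1 array left out, but not in a fit of these groups alone (adjusted p = 0.135). On its other probe sets the HOXB4 means at 6 and 20 weeks were 5.48 and 7.06 (1427576_PM_at), and 3.07 and 3.14 (1427753_PM_at). The heavy chain variable segment Ighv6-6 rose by 1.42 ± 0.34 (adjusted p = 0.0359) and lost its call when any 1 HOXB4 array of 6 weeks, or replicate 1 or 2 of 20 weeks, was left out (adjusted p up to 0.11) and in the fit of these groups alone (adjusted p = 0.13). At 12 against 6 weeks 0 of 14 were called by limma (2.29% of all genes), 7 had a positive difference with an unadjusted p under 0.05, and the median was 1.14. At 20 against 12 weeks 0 of 14 were called (0.292% of all genes), 0 at an unadjusted p under 0.05, with a median of 0.09. The kappa joining segment Igkj1 was at 9.99, 10.06 and 3.87 at 6 weeks and at 10.93 to 12.41 on the later HOXB4 arrays; its low value was on the same array as that of Jchain.

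Between vectors the other immunoglobulin genes had a median of 0.32 at 12 weeks, with 1 of 14 called lower and 0 higher (3.54% of all genes called). At 20 weeks the median was -1.02, and 2 of 14 were lower and 0 higher (8.01% of all genes called). Igha, the constant region of IgA, was lower at 12 weeks by -0.53 ± 0.12 (adjusted p = 0.0304) and at 20 weeks by -0.47 ± 0.12 (adjusted p = 0.0327), and over both times by -0.50 ± 0.09 (adjusted p = 0.00191), but its signal was only 3.33 to 4.18 in any group mean, where values may be background. Igkv14-111 was lower over both times (-1.64 ± 0.43; adjusted p = 0.0229, up to 0.0591 without replicate 3 of GFP or 1 or 2 of HOXB4 at 12 weeks, or replicate 1 of GFP at 20 weeks) and at 20 weeks, at 5.47 ± 0.34 in HOXB4 cells and 7.80 ± 1.34 in GFP cells (-2.33 ± 0.61; adjusted p = 0.0346). At 20 weeks Igkv14-111 and Igha each lost the call when any 1 of 4 arrays was left out: GFP replicate 3 and HOXB4 replicates 2 and 3 for both, GFP replicate 1 for Igkv14-111 and GFP replicate 2 for Igha (adjusted p up to 0.119 and 0.147). At 12 weeks Igha lost it when any 1 of the 6 arrays other than GFP replicate 2 was left out (adjusted p up to 0.119), while its call over both times held with any 1 array left out. The difference between the vector effects at 20 and at 12 weeks had a median of -1.41, with 0 of 14 called by limma (0.386% of all genes) and 7 negative at an unadjusted p under 0.05. The corresponding value of Ighm, described with no test, was -3.96.

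Of 9 genes of the pre-B cell receptor, which carries the mu chain, and of its signalling, 6 were higher in HOXB4 cells over both times and 0 lower, with a median of 2.23 (14.3% of all genes called), and 5 or 6 were higher with any 1 array left out. At 12 weeks 4 of 9 were higher (median 2.62; 3.54% of all genes called) and at 20 weeks 2 of 9 (median 1.66; 8.01%), with 0 to 2 called at either time when 1 array was left out. The effect at 20 minus that at 12 weeks had a median of -0.92, with 0 of 9 called by limma and 0 at an unadjusted p under 0.05. Vpreb2, part of the surrogate light chain, averaged 9.56 ± 0.32 with HOXB4 and 6.17 ± 0.11 with GFP at 12 weeks, then 9.84 ± 0.67 with HOXB4 and 7.37 ± 0.95 with GFP at 20 weeks (2.93 ± 0.45 over both times; adjusted p = 0.000939). Vpreb3 (2.32), Vpreb1 (3.07) and Cd79a, the signalling partner of the mu chain (2.51), were higher as well. Between times, 0 of 9 passed in GFP cells by limma, with 4 higher at an unadjusted p under 0.05. The median GFP difference was 1.10, and Cd79a differed by 2.26.

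Among 15 transcription factors of the B lineage, 8 were higher in HOXB4 cells over both times and 2 lower, with a median of 0.58 (14.3% of all genes called). Ebf1, which acts beside Pax5, was higher by 3.02 ± 0.51 (adjusted p = 0.00166) and Ets1 by 1.60 ± 0.23 (adjusted p = 0.00052). Pax5 itself, which served to pick Ighm, is among the 8. Irf8 was lower by -1.34 ± 0.18 (adjusted p = 0.000319); it was at 8.18 ± 0.24 with HOXB4 and 9.88 ± 0.35 with GFP at 20 weeks. In GFP cells at 20 against 12 weeks 0 of 15 were called by limma (1.89% of all genes), with 8 higher and 1 lower at an unadjusted p under 0.05. Of the 15 differences 10 were above 0, with a median of 0.78 and a range of -0.54 to 2.72. Pou2af1, a coactivator at octamer sites of immunoglobulin promoters, was at 8.02 ± 1.36 in GFP cells at 20 weeks, against 5.30 ± 0.57 at 12 weeks. It is an example chosen after its values were seen, from the upper end of that range, and was not called. In the V(D)J recombination and early lymphoid list, 4 of 8 genes were higher over both times (4 to 7 with 1 array left out; 14.3% of all genes called) and 0 lower, with the recombinase Rag1 at 3.13 ± 0.51, its partner Rag2 at 2.11 ± 0.35 and Dntt, which adds bases at joints, at 1.86 ± 0.29.

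The mean over 12 markers of mature B cells was between 5.74 and 7.13 on the 15 arrays. Ms4a1, which encodes CD20 and is an example chosen after its values were seen, averaged 4.10 ± 0.06 with HOXB4 and 3.87 ± 0.22 with GFP at 12 weeks, then 4.17 ± 0.21 with HOXB4 and 5.08 ± 1.02 with GFP at 20 weeks. Over 12 such genes 1 was higher and 1 lower in HOXB4 cells at 20 weeks (2 higher without GFP replicate 3 and 4 lower without GFP replicate 2), with a median of -0.57 (8.01% of all genes called). Fcer2a, which encodes CD23, was lower, at 4.22 ± 0.26 in HOXB4 and 5.69 ± 0.20 in GFP cells (-1.47 ± 0.18; adjusted p = 0.000231), and Cd72, present from the pro-B stage, was higher (2.28 ± 0.21; adjusted p = 2.8e-05). The 12-week comparison gave 1 higher and 0 lower, with a median of 0.34 (3.54% of all genes called). Over both times 3 were higher and 1 lower, with a median of -0.04 (14.3% of all genes called). Cd37 (0.72 ± 0.20; limma adjusted p = 0.0278) and Cr2 (0.31 ± 0.09; adjusted p = 0.0327) were among the higher. Under the alternatives their adjusted p rose to 0.0768 and 0.0859. In GFP cells at 20 against 12 weeks 1 of 12 rose (1.89% of all genes called), Fcer2a, by 1.60 ± 0.18 (adjusted p = 0.000377). Without GFP replicate 2 of 20 weeks 6 of the 12 were called higher there.

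Plasma cell genes gave 0 of 15 higher and 5 lower over both times, with a median of -0.20 (14.3% of all genes called). The secretory pathway genes Edem1 (-0.61 ± 0.08; adjusted p = 0.000282), Creld2 (-0.60 ± 0.10; adjusted p = 0.00138) and Txndc5 (-0.69 ± 0.13; adjusted p = 0.00401) and the factor Xbp1 (-0.94 ± 0.17; adjusted p = 0.00294) were among them. Xbp1 was at 8.40 ± 0.52 with HOXB4 and 9.60 ± 0.04 with GFP at 20 weeks. In GFP cells the list mean was 7.04 to 7.40 at 20 weeks, against 6.92 to 6.95 at 12 weeks, so the arrays did not overlap. Of the 15 differences 13 were above 0, with a median of 0.27, and 7 were higher and 1 lower at an unadjusted p under 0.05. Among the defining genes, chosen after their values were seen, the receptor gene Tnfrsf17 was at 3.82 ± 0.18 at 20 weeks, against 3.55 ± 0.20 at 12 weeks. Prdm1, which drives plasma cell fate, was at 5.41 ± 0.35, against 4.91 ± 0.22, and Xbp1 at 9.60 ± 0.04, against 8.99 ± 0.09. The part of plasma cells in the Jchain difference was not tested. After adjustment 1 of 15 rose and 1 fell (1.89% of all genes called): Edem1 rose (0.53 ± 0.11; adjusted p = 0.0304), though not with any 1 of the 6 arrays left out (adjusted p up to 0.122), and Cd27 fell (-0.79 ± 0.14; adjusted p = 0.00941), though not without replicate 1 of 20 weeks (adjusted p = 0.0593).

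Markers of other lineages and of LSK cells were read beside the chains in GFP cells at 20 weeks. Their part in the immunoglobulin differences was not tested. The mean over 4 LSK markers was 7.88 to 8.30 at 20 weeks, against 8.77 to 8.83 at 12 weeks, with a median difference of -0.77. All 4 were lower at an unadjusted p under 0.05, and Cd34 passed adjustment (-0.80 ± 0.13; adjusted p = 0.00704). The mean over 12 mature B cell markers was 6.41, 5.82 and 7.13 on replicates 1, 2 and 3, that over 5 erythroblast markers 7.02, 5.90 and 7.25, and that over 9 T cell markers 5.31, 4.82 and 5.56. All of these had replicate 2 lowest and replicate 3 highest, as had most immunoglobulin probe sets. The order was not particular to them: the LSK marker mean was 7.96, 7.88 and 8.30 on replicates 1, 2 and 3. The means of the plasma cell, B-lineage factor, pre-B receptor, V(D)J and plasmacytoid dendritic cell lists had this order too. The mean over 10 neutrophil markers had the same order with a smaller spread, at 8.94, 8.93 and 9.02. Of these markers 6 of 10 were higher than at 12 weeks (3 without GFP replicate 2 of 12 weeks and at most 5 without any other 1 array; 1.89% of all genes called), with a range of 8.93 to 9.02 at 20 weeks, against 6.22 to 6.88 at 12 weeks. Among defining markers, chosen after their values were seen, the T cell gene Cd3e was at 4.72 ± 0.55 at 20 weeks, against 4.21 ± 0.20 at 12 weeks. The hemoglobin gene Hba-a1 was at 10.41 ± 1.83, against 7.80 ± 1.05, at the upper end of its list. Of the 5 erythroblast markers 3 had differences above 0 and 0 were called, with a median of 0.61 and a range of -0.24 to 2.62. Of the 9 T cell markers 8 were above 0 and 0 were called, with a median of 0.28. In HOXB4 cells the neutrophil mean was 4.97 to 6.82 at 6 weeks, 7.45 to 7.97 at 12 weeks and 6.20 to 7.19 at 20 weeks. Of 6 plasmacytoid dendritic cell markers 2 were higher in HOXB4 cells over both times, Cox6a2 (1.44 ± 0.28) and Tcf4 (0.81 ± 0.17), when 14.3% of all genes were called. Of 9 T cell markers 1 was higher in that comparison, a share below that of all genes, Thy1 (0.72 ± 0.22; adjusted p = 0.0475, up to 0.122 with 1 array left out), and 0 of 5 erythroblast markers were called by limma, 0 also at an unadjusted p under 0.05.

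**Figure D4:**
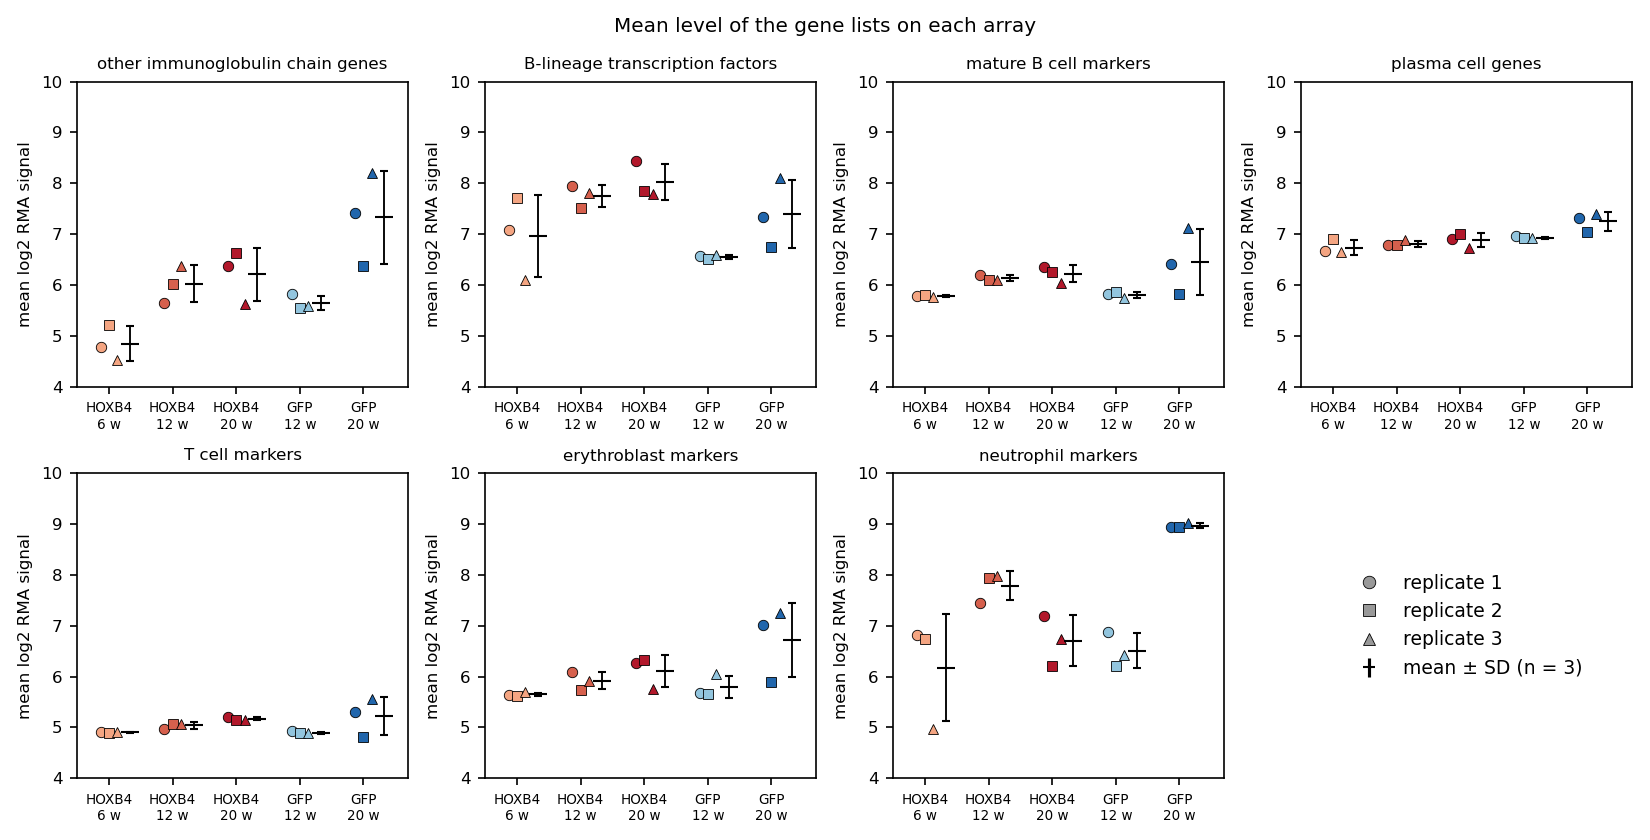
Mean log2 RMA signal (vertical axis) of 7 gene lists on each array; marker shapes are replicates and bars are the mean ± SD of 3 arrays. Neutrophil markers lie at 8.93 to 9.02 in GFP cells at 20 weeks. All the other lists shown spread more widely, between replicate 2 (lowest) and replicate 3 (highest) of that group.

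The genes with the most similar profiles were found by the root mean square difference between log2 values over 15 arrays, each centred on its mean, with 1 probe set a gene and the 3 chain genes left out. For Ighm these were Igkv15-103 (0.92), Igkv19-93 (1.02), the B cell kinase gene Prkcb (1.05), Ly6d (1.05) and Gimap4 (1.06), where the spread of Ighm itself was 1.73. Pax5 came at rank 257 with 1.55, in a ranking of all 17097 genes but those left out. A flat profile would score 1.73 against Ighm, so Pax5 was closer to it than a flat profile. The relation of Pax5 to Ighm is part of the pattern on which Ighm was picked. For Jchain they were Igkj1 (0.73), Igkv1-135 (1.0), Igkv9-120 (1.05) and the calcium-binding protein genes S100a6 (1.08) and S100a4 (1.13), against a spread of 1.81. Pax5 was at rank 16961 with 2.15. The measure also depends on the spread of the compared gene: a flat profile would score 1.81 here, so a low rank partly reflects a wide range. For 1427858_PM_at they were Igkv6-15 (1.39), Hbb-b2 (1.49), Igkv19-93 (1.5), Igkv9-120 (1.51) and Hba-a1 (1.58), against a spread of 2.41; for its partner the hemoglobin gene Hbb-b2 also ranked in the first 5, beside 4 kappa segments. 1427757_PM_at had no immunoglobulin gene among its closest 5, which were Pilrb1 (0.30), Gramd3 (0.30), Ncf4 (0.32), Gpr84 (0.32) and B430306N03Rik (0.32), against a spread of 0.54. A small difference for a probe set of small spread mostly reflects that few arrays rose above its base level. Pax5 was at rank 12601 for 1427858_PM_at, 13083 for 1460423_PM_x_at and 17091 for 1427757_PM_at.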

How the data were processed

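Expression was measured on 15 arrays of sorted mouse LSK cells, 3 in each of 5 groups taken from the sample titles. The deposited log2 values are RMA signals; the submitters' processing notes name RMA and Partek 6.5; probe filters and further scaling are not given in the sources used here. RMA makes arrays comparable by forcing alike distributions, and without detection calls a low value may be background. Per the labels' protocols, 20 ng of total RNA were amplified with NuGEN reagents, and the number of arrays limits the precision. Of 45141 probe sets, 104 controls were left out; 28898 of the rest had 1 gene symbol, 551 several and 15588 were not listed. Symbols came from the platform annotation, updated through the gene identifier in 28689 cases with GRCm38.p6.

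From these values 1 linear model with a mean per group was fitted in R 4.3.3 by lmFit and eBayes of limma 3.58.1 ( 10 residual and 4.31 prior degrees of freedom), with two-sided tests in 8 comparisons, adjusted over 45037 probe sets and called at an adjusted p under 0.05. An exact permutation test of 3 arrays against 3 cannot go below 0.1. Gene lists used the brightest probe set of each of 17097 genes. The genes and lists were chosen with earlier results of these data known. Genes named are the members, Pax5, the 5 closest profiles of each member, up to 4 called genes of smallest p for a list and comparison, and examples of list members chosen after their values were seen. Of the listed genes, those without a probe set of a single symbol (such as Sdc1 and Ly6a) were not used. Tested on simulated data for HOXB4 against GFP at 20 weeks over 45037 probe sets, the fit recovered 64 of 100 changes of 1 and 99 of 100 changes of 2 on the log2 scale. Alternatives were further quantile normalisation, centring, trend and robust moderation, removal of the dimmest probe sets, 1 probe set a gene, only the groups compared, the replicate number as a block, and leaving out each array. Figures and counts were made in Python 3.11.15 with pandas 2.3.3.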

Additional observations from a re-analysis of the deposited data

Results flagged for a closer look

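The difference between HOXB4 and GFP cells itself differed between 20 and 12 weeks, by an interaction test in limma, for 5 genes of the marker lists. They were the neutrophil genes Lcn2 (-5.55 ± 0.91, adjusted p = 0.0183), Camp (-4.66 ± 0.78, adjusted p = 0.021), Ltf (-3.89 ± 0.53, adjusted p = 0.0046) and Cd177 (-3.79 ± 0.52, adjusted p = 0.0046), and the B cell gene Fcer2a (-1.59 ± 0.26, adjusted p = 0.0165), each the log2 effect at 20 weeks minus that at 12 weeks. The calls of Fcer2a, Lcn2 and Camp were lost without replicate 2 or 3 of either group at 12 weeks (adjusted p up to 0.0609, 0.0663 and 0.0815). Those of Lcn2 and Camp were also lost without GFP replicate 1 of 20 weeks (adjusted p = 0.0567 and 0.0702), and that of Camp without HOXB4 replicate 2 of 20 weeks (adjusted p = 0.0523). Ltf and Cd177 kept theirs under the 19 alternatives run. Of all probe sets 0.289% passed this test. The chain genes were not put to it, because their course over time was used to choose them. With 3 arrays a group, no group was tested for a single outlying array.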

How the results depend on the processing

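No called value changed direction under any alternative run. Single list genes kept their call in 1283 of their recomputed values and lost it in 341, so many single-gene calls rest on all arrays and on the spread shared by 5 groups. In a fit of only the groups compared, the percent of probe sets called was 11.1 for HOXB4 against GFP at 12 weeks, 2.64 at 20 weeks, 0.531 for the difference between both effects, and, within HOXB4 cells, 0.44 (12 against 6 weeks), 0.109 (20 against 12) and 0.0155 (20 against 6). With 1 probe set a gene it was 0.509 for the difference between effects, 1.57 for HOXB4 at 12 against 6 weeks and 2.37 for GFP at 20 against 12 weeks, and without the dimmest probe sets 0.496, 5.13 and 2.35. For 1427757_PM_at, the fit of only the groups compared gave -1.08 at 20 weeks (adjusted p = 0.169). Over both times it was called at -0.63 after quantile normalisation (adjusted p = 0.0356), -0.61 after centring (adjusted p = 0.04) and -0.56 with trend and robust moderation (adjusted p = 0.0498). With 1 array left out, the percent called ranged from 0.686 to 4.62 at 12 weeks, 3.28 to 8.09 at 20 weeks, 8.27 to 15.3 over both and 0.133 to 0.833 for the difference between effects. Within HOXB4 cells it ranged from 0.273 to 5.78 (12 against 6 weeks), 0.0289 to 0.917 (20 against 12) and 1.86 to 5.46 (20 against 6), and from 0.646 to 2.06 for GFP. The value of 1427757_PM_at ranged from -1.48 to -0.76 at 20 weeks, -0.76 to -0.40 over both times, -1.44 to -0.72 for the difference between effects and 0.78 to 1.5 over time in GFP cells. The share of calls that were higher was 60.7% after centring against 48.0% for HOXB4 at 12 against 6 weeks, 34.3% against 46.6% for the vectors over both times, and after quantile normalisation 32.8% against 45.8% and 48.8% against 59.1% for HOXB4 at 20 against 12 and 20 against 6 weeks. Larger shifts came with other alternatives. The share was 79.9% with 1 probe set a gene for HOXB4 at 12 against 6 weeks. In the fit of only the groups compared it was 14.3% for HOXB4 at 20 against 12 weeks (7 higher, 42 lower). There it was 85.7% for 20 against 6 weeks (6 higher, 1 lower). Arrays with the same replicate number shared only a number: their deviations from the group means correlated between -0.15 and 0.11. The replicate number as a block gave 0.167 percent called for HOXB4 at 20 against 12 weeks. The cause of these shifts was not tested. The fits of fewer groups have fewer arrays for the spread.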
